A study of Homo sapiens with 12 samples.

Results

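Ribosome biogenesis and nucleolar genes were followed in HepG2C3A cells, a human liver tumour cell line with hepatocyte-like functions. The set was 45 genes chosen by name, not by a threshold on their values, though with earlier results of these data known: the transcription factor MYC and genes for RNA polymerase I, snoRNP core proteins, abundant nucleolar proteins and assembly factors of both ribosomal subunits. Of the 45, 42 were measured, among 18404 genes in all with a probe set of their own. NOP56 shares its probe set with a small nucleolar RNA gene, and GNL3 and EBNA1BP2 have no symbol in the probe annotation used here. Every one of the 42 was among the 13199 genes tested.

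RNA was hybridised to 12 Affymetrix Human Gene 1.0 ST arrays in 4 groups of 3, and all groups were cultured for 96 h. The groups were cells exposed to acetaminophen for 72 h in a microsystem, untreated cells in the microsystem, cells exposed to acetaminophen for 72 h in Petri dishes, and untreated cells in Petri dishes. Acetaminophen is an analgesic that the liver clears in part through a reactive quinone imine. No dose and no description of the microsystem were found in the labels, and cells of both cultures were detached with trypsin before extraction. All 4 groups are of 1 cell line, so none shows how other hepatocytes would respond. An asterisk of unknown meaning follows the description of treated Petri array 3.

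Ribosome assembly begins in the nucleolus, where RNA polymerase I copies ribosomal DNA into a long precursor RNA. Small nucleolar ribonucleoproteins (snoRNPs) guide its methylation and pseudouridylation, and many transient factors cleave, fold and package it into a small and a large subunit that leave the nucleus separately. MYC, bound with MAX to E-box sequences, is known to raise transcription of many of these genes, and hepatocytes raise them when they leave quiescence, as in liver regeneration.

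The E box CACGTG, which reads the same on both strands, was searched in RefSeq promoter windows (GRCh38.p14, 250 bases before to 50 after each start). Of the 42 genes, 36 had a window and 16 of these (44.4%) held the motif, against 10.9% of 15843 protein-coding genes and 8.77% of all 27305 genes. All 16 held it within 50 bases of a start, as did 42.2% of the 1727 protein-coding genes with the motif. A match is a description of the letters and shows no binding. The windows of 30 bases below are those of genes that rose or fell in at least 1 comparison. They were cut around the motif, which is in capitals, so its place within them carries no information. Counted from the start, the motif's first base lay between -10 (UTP20) and 36 (NOP2) in these genes.
LTV1: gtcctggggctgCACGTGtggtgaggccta
WDR43: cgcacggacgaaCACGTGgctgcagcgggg
UTP20: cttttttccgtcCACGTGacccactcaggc
BYSL: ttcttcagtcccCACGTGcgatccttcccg
NOP14: tccgcggcccggCACGTGtcttagggtagc
FBL: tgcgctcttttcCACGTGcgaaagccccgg
GAR1: gggccagaggggCACGTGgcgccggtgagt
NOP2: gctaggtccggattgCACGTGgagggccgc
GNL2: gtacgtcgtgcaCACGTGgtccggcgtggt
On the plus strand these lie at chr6:143843354-143843383 (LTV1), chr2:28894658-28894687 (WDR43), chr12:101280083-101280112 (UTP20), chr6:41921515-41921544 (BYSL) and chr4:109815781-109815810 (GAR1). Those on the minus strand are chr4:2963374-2963403 (NOP14), chr19:39846356-39846385 (FBL), chr12:6568242-6568271 (NOP2) and chr1:37595917-37595946 (GNL2). Between untreated cultures, 5 of the 13 rising genes with a window held the motif, against 1 of 4 falling genes and 10 of 19 without a call. Between treated cultures these were 4 of 9, 2 of 4 and 10 of 23. With treatment, 1 of 5 falling genes held it in the microsystem, against 15 of 31 without a call. In Petri dishes the counts were 1 of 2 and 15 of 34. Groups this small cannot tell whether the motif goes with the direction of change.

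Values are log2 intensities, on which a difference of 1 is a doubling. Array medians lay between 5.556 and 5.629, and arrays of a group correlated with r between 0.991 and 0.995. The first principal component (63.7% of the variance) separated the cultures and the second (14.4%) separated treated from untreated cells. The third (6.77%) set the microsystem arrays numbered 3, treated and untreated, apart from the others. All 42 genes exceeded the 40th percentile of their array on all 12 arrays. Of 8 hepatocyte markers, 8 did so too, with ALB means from 12.81 to 13.08 and AFP means from 12.13 to 12.62 across groups. Endothelial markers exceeded it on all arrays for 0 of 5 genes, leukocyte markers for 2 of 4 (CD68 and LYZ), and fibroblast markers for 4 of 6, with DCN and LUM above it on none.

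A gene is said to have risen or fallen where limma's adjusted p, taken over all 13199 genes, was under 0.05. Differences are given with the standard error (SE) of that fit. Whether the arrays of a group stem from separate cultures is not stated in the labels. The p-values therefore reflect only how far these samples scatter, and that scatter may be technical. An exact permutation test of 3 arrays against 3 cannot go below p = 0.1.

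Acetaminophen lowered a few ribosome biogenesis genes in the microsystem and raised none. The first comparison asked what the drug did to cells grown there. FBL, the rRNA methyltransferase of box C/D snoRNPs, NHP2 and DKC1 of box H/ACA snoRNPs, NOB1 of the small subunit and NOP16 of the large subunit fell by 0.29 to 0.41 on the log2 scale. The falls were 5 of 42 genes (11.9%), against 2.67% of all genes tested that fell and 9.06% called in either direction. None of the 42 rose (0 of 42), against 6.39% of all genes. At an unadjusted p under 0.05, limma gave 18 lower (42.9%, against 11.3% of all genes) and 0 higher (against 14.5% of all genes). The differences were below 0 for 40 of 42 genes (95.2%), against 51.4% of all genes, with a median of -0.19, against -0.01. In these bulk samples, less RNA per cell and fewer cells that express a gene cannot be told apart.

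The groups did not overlap for 14 of 42 genes (33.3%), against 27.6% of all genes, and 13 of these 14 were lower in treated cells. This comparison rested on single arrays. Untreated microsystem array 1 lay below its partners: the median deviation of the 42 genes from their own means was 0.01 on it, 0.21 on array 2 and 0.26 on array 3, while over all genes it stayed between -0.02 and 0.03 on the 12 arrays. Treated microsystem arrays 1, 2 and 3 had -0.10, -0.07 and 0.06. Without untreated microsystem array 1, 13 genes fell, and without untreated microsystem array 2 or treated microsystem array 2, 0 fell. Leaving out treated microsystem array 1, untreated microsystem array 3 or treated Petri array 2 left 1, treated Petri array 3, untreated Petri array 2 or untreated Petri array 3 left 2, and treated Petri array 1 left 3. The median difference stayed between -0.27 and -0.14 over these omissions.

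In Petri dishes the same drug lowered MYC, WDR12 and RRS1 of large subunit assembly, and the box H/ACA protein gene GAR1, by 0.28 to 0.57. These 4 of 42 genes (9.52%) compare with 1.98% of all genes tested that fell and 10.4% called in either direction. None of the 42 rose (0 in limma), against 8.38% of all genes. At an unadjusted p under 0.05, 0 were higher, against 17.2% of all genes, and 8 (19%) were lower, against 9.08% of all genes. Differences were below 0 for 33 genes (78.6%), against 47.3% of all genes, and the median was -0.10, against 0.01. Treated and untreated arrays did not overlap for 17 of 42 genes (40.5%), all 17 lower in treated cells, against 34.5% of all genes.

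Arrays with the same number deviated together in Petri dishes, and with the replicate number as a block within each culture 6 genes fell. The block added BYSL (adjusted p = 0.0235) and NOP16 (adjusted p = 0.0166). Here too calls depended on single arrays: 0 genes fell without untreated Petri array 2 or 3, 1 without treated Petri array 2 or 3, and 2 without treated Petri array 1 or untreated Petri array 1. Calls in the microsystem and in Petri dishes had no gene in common (0 of 5 and 0 of 4). Over all genes tested, the shared falls were 19.3% of those in the microsystem and 26.1% of those in Petri dishes. Of the 42 genes, 32 (76.2%) were below 0 in both cultures, against 35.9% of all genes.

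No gene was shown to respond differently in the cultures. For the difference of the treatment effects, microsystem minus Petri dishes, limma called 0 of 42 genes, against 0.0303% of all genes (0.00758% higher and 0.0227% lower), and at an unadjusted p under 0.05 gave 2 lower, against 4.53% of all genes, and 0 higher, against 2.82% of all genes. Those 2 were NHP2, at -0.40 ± 0.17 (95% interval -0.75 to -0.04, adjusted p = 0.635), and IMP3. A second NHP2 probe set gave -0.21 ± 0.19 (limma adjusted p = 0.888 over all probe sets). WDR12 lay at the other end, at 0.22.

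**Figure D1:**
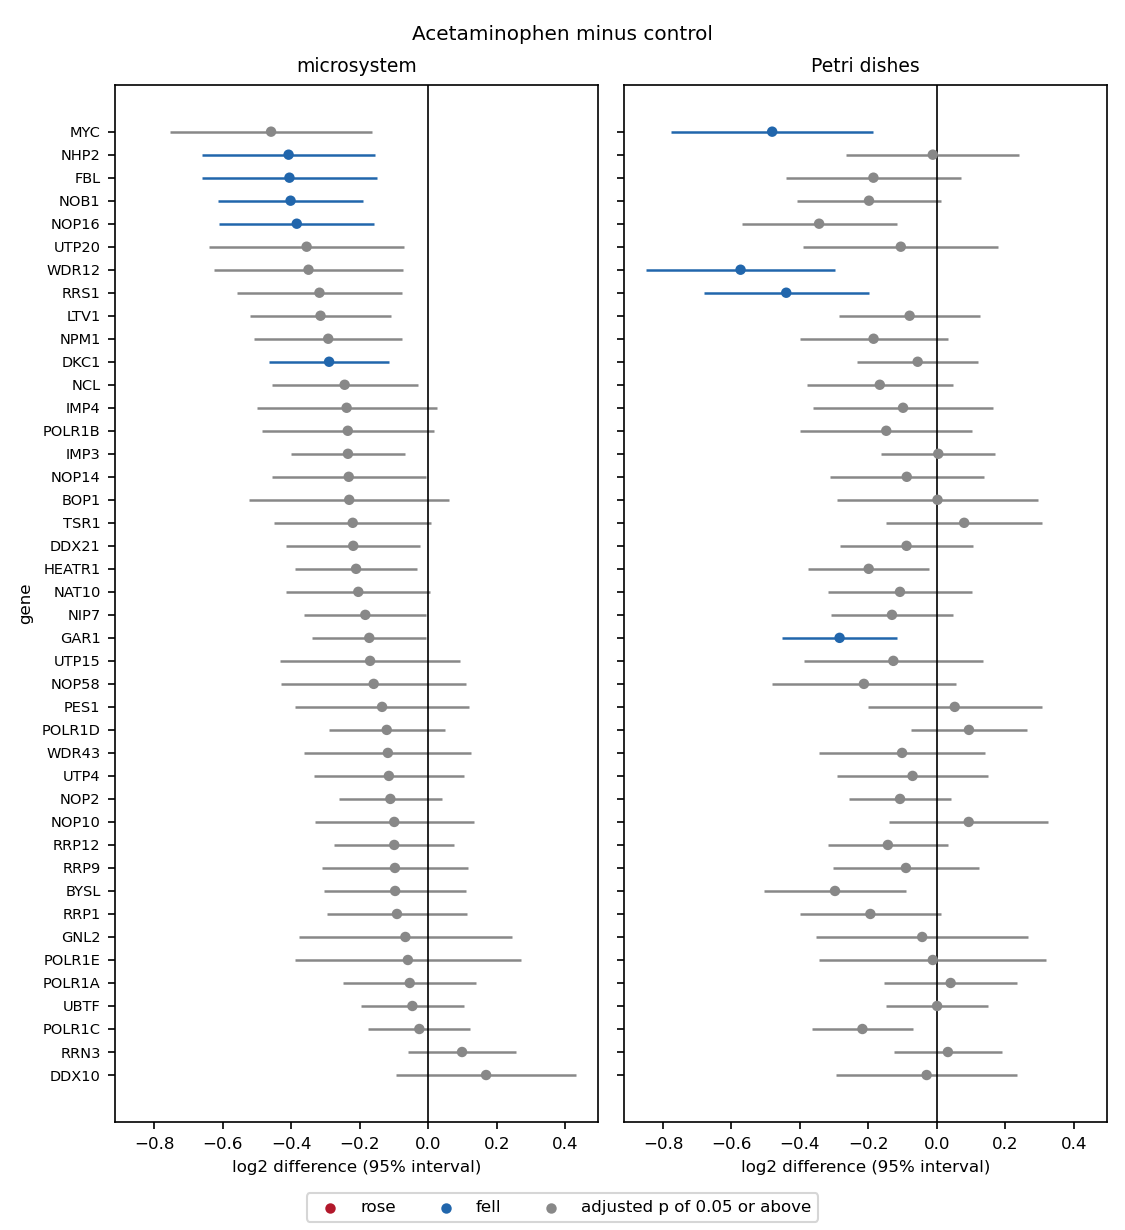
Treated minus untreated differences (log2, with 95% intervals) of the 42 genes in the microsystem (left) and in Petri dishes (right). Blue points fell and grey points did not pass. In the microsystem 40 of 42 points lie left of 0 and in Petri dishes 33 of 42, and no gene passed as a rise in either culture.

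Averaging the treatment effect over both cultures, a contrast added after the values had been seen, uses all 12 arrays, and single arrays were not left out of it. On that average 11 of 42 genes (26.2%) fell, against 8.31% of all genes, and 0 of 42 rose, against 15.0% of all genes. At an unadjusted p under 0.05, 0 of 42 were higher, against 21.6% of all genes. The 11 were MYC (-0.47 ± 0.10 SE, limma adjusted p = 0.00413), WDR12 (-0.46 ± 0.09, adjusted p = 0.00307), RRS1, NOP16, NOB1, FBL, NPM1, GAR1, NCL, HEATR1 and DKC1. The group with the lowest mean of the 4 was treated Petri cells for 20 genes and treated microsystem cells for 16.

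The culture comparisons held larger differences, in both directions. Calls with a change of at least 1.5-fold numbered 8 of 42 (19%) between treated cells, against 14.8% of all genes, and 8 of 42 (19%) between untreated cells, against 16.9% of all genes. Treatment gave 0 such calls by limma in the microsystem and 0 in Petri dishes, against 2.35% and 2.97% of all genes. The comparison of treated cells asked how the microsystem differs from Petri dishes under acetaminophen. There 10 of 42 genes (23.8%) rose, against 22.6% of all genes, and 5 (11.9%) fell, against 18.9% of all genes. Together these are 15 genes (35.7%), against 41.4% of all genes. RRS1, POLR1A of RNA polymerase I and LTV1 of small subunit export rose the most, by 0.83 to 0.98. POLR1D, a subunit shared by RNA polymerases I and III, NOB1, GNL2, MYC and WDR43 fell. The median was 0.11, and 22 of 42 genes (52.4%) did not overlap, against 52.9% of all genes.

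Between untreated cells, 14 of 42 genes (33.3%) were higher in the microsystem, against 26.5% of all genes, and 5 (11.9%) were lower, against 18.3% of all genes. Together these are 19 genes (45.2%), against 44.9% of all genes. LTV1 rose by 1.07 ± 0.10 SE (2.1-fold, adjusted p = 2.14e-06), and POLR1A, RRS1 and IMP3 followed. POLR1D fell the most, by 0.90 ± 0.08, ahead of NOB1, GNL2, MYC and DDX10. The median was 0.16, and 24 of 42 genes (57.1%) did not overlap, against 52.4% of all genes. The shares called are near those of all genes tested.

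Both culture comparisons use separate arrays. The 9 genes that rose in both were BYSL, IMP3, LTV1, NIP7, NOP14, NOP2, POLR1A, RRS1 and WDR12, which are 90% of the rises between treated and 64.3% of those between untreated cells. MYC, NOB1, GNL2 and POLR1D fell in both, 80% of the falls in each. Over all genes tested, the shared rises were 85.3% of those between treated and 72.5% of those between untreated cells, and the shared falls were 73.8% and 75.9%.

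**Figure D2:**
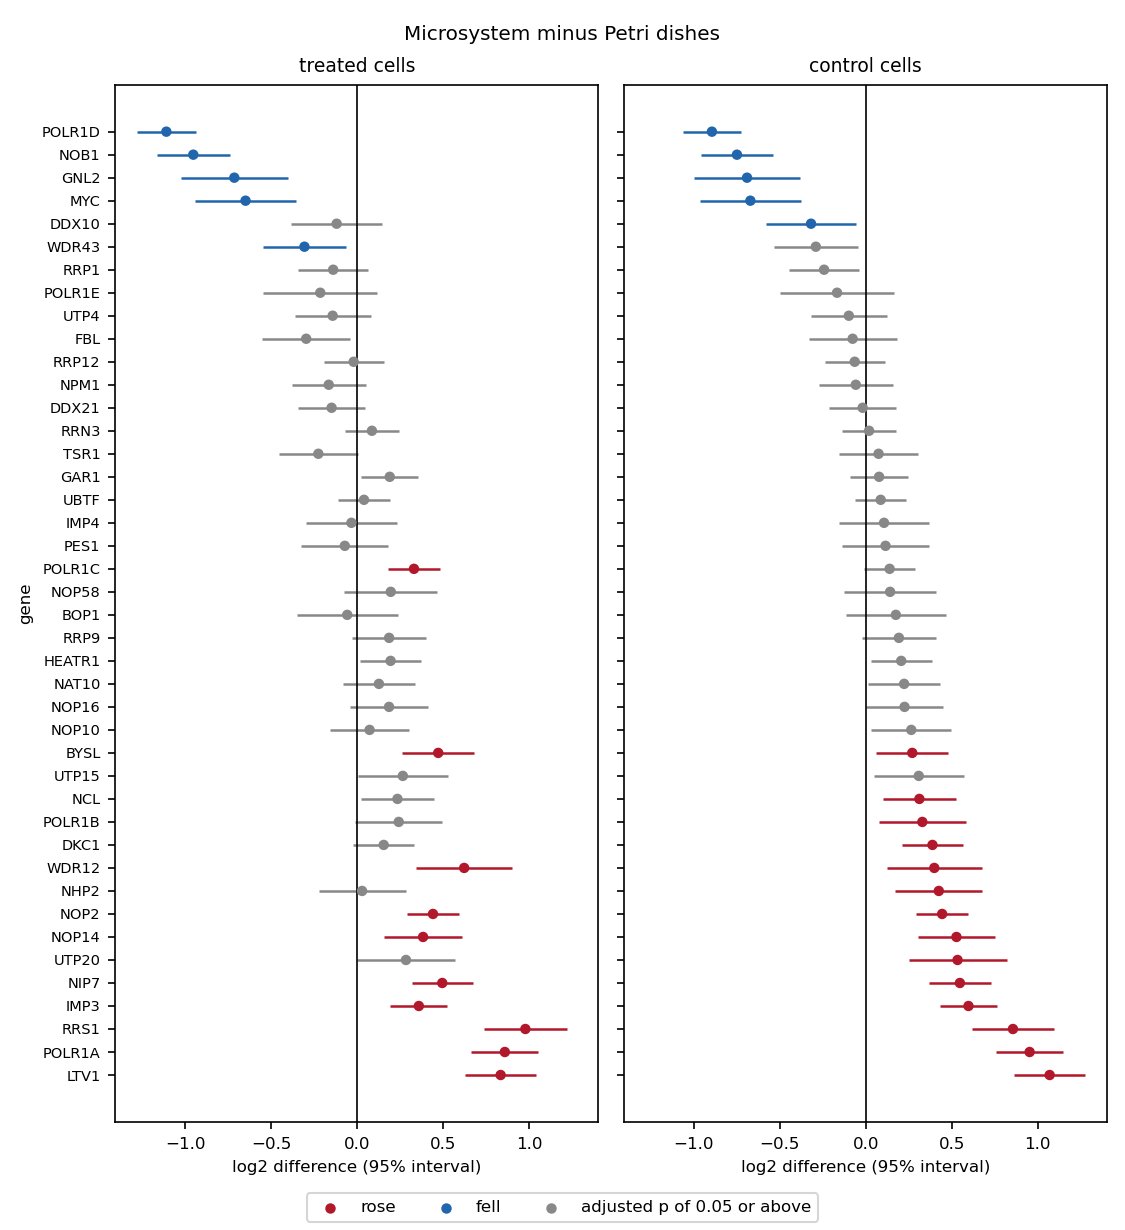
Microsystem minus Petri differences (log2, with 95% intervals) in treated (left) and untreated cells (right). POLR1D, NOB1, GNL2 and MYC lie furthest to the left in both panels and LTV1, POLR1A and RRS1 furthest to the right.

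MYC was lowest where both the microsystem and the drug were present. Its values were 9.41, 9.17 and 9.67 in treated and 9.57, 9.93 and 10.11 in untreated microsystem cells, and 10.15, 10.05 and 9.99 in treated and 10.48, 10.63 and 10.52 in untreated Petri cells. The Petri groups do not overlap, whereas the highest treated microsystem array exceeds the lowest untreated one. Treatment in Petri dishes gave -0.48 ± 0.14 SE (adjusted p = 0.0411), a call lost at an adjusted p of up to 0.135 without any 1 of the 6 Petri arrays, treated microsystem array 1 or untreated microsystem array 2. In the microsystem, treatment gave -0.46 ± 0.14 (adjusted p = 0.0533). This passed under 6 alternatives, among them leaving out treated microsystem array 3 or untreated microsystem array 1 (adjusted p as low as 0.0117). The microsystem lowered MYC by 0.65 ± 0.14 between treated cells (adjusted p = 0.00194) and by 0.67 ± 0.14 between untreated cells (adjusted p = 0.00139), and no alternative ended these calls. MYC, NOB1, GNL2 and POLR1D were the 4 genes of the set that fell in both culture comparisons. Another 9 rose in both, among them LTV1, POLR1A and RRS1. Whether MYC has a part in these falls or rises was not tested.

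The 7 RNA polymerase I genes of the set gave no call for the drug, and between cultures only POLR1A, POLR1B, POLR1C and POLR1D had calls. The 5 subunits and both factors were without a call under treatment in either culture, between -0.23 and 0.10. POLR1C in Petri dishes came closest, at -0.22 ± 0.07 SE with groups apart (limma adjusted p = 0.0634). This difference passed under 3 alternatives: quantile normalization, a filter at the 60th percentile and array weights (adjusted p as low as 0.00553). POLR1A, the largest catalytic subunit, read 8.70, 8.85 and 8.89 in treated and 8.81, 8.84 and 8.96 in untreated microsystem cells, against 7.89, 8.03 and 7.95 in treated and 8.08, 7.86 and 7.81 in untreated Petri cells. Every microsystem array exceeds every Petri array. It rose by 0.86 ± 0.09 SE between treated cells (adjusted p = 8.82e-06) and by 0.95 ± 0.09 between untreated cells (adjusted p = 3.35e-06).

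POLR1D went the other way. It read 8.32, 8.31 and 8.27 in treated and 8.38, 8.48 and 8.41 in untreated microsystem cells, against 9.32, 9.42 and 9.50 in treated and 9.21, 9.33 and 9.41 in untreated Petri cells. Again the cultures do not overlap. The fall was 1.11 ± 0.08 SE between treated cells (2.16-fold, adjusted p = 4.54e-07) and 0.90 ± 0.08 between untreated cells (adjusted p = 1.88e-06). POLR1C, its partner in the shared subcomplex, rose by 0.33 ± 0.07 between treated cells (adjusted p = 0.00184) and differed by 0.14 ± 0.07 between untreated cells (adjusted p = 0.121).

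The second catalytic subunit, POLR1B, rose by 0.33 ± 0.12 between untreated cells (adjusted p = 0.035) and differed by 0.24 between treated cells (adjusted p = 0.116, and as low as 0.0427 where it passed without treated microsystem array 1). The call between untreated cells was lost without untreated microsystem array 2 or 3 or untreated Petri array 1 or 3 (adjusted p up to 0.117). POLR1E, which helps the enzyme initiate and elongate, had no call in the 4 comparisons, and its arrays spread from 7.39 to 7.98 within the untreated microsystem. UBTF, which binds the ribosomal DNA promoter, and RRN3, which brings the polymerase to it, stayed between -0.05 and 0.10 in all 4 comparisons. RRN3 has near-identical copies, so its signal is uncertain.

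Core proteins of the snoRNPs fell with the drug in part. FBL read 9.30, 9.16 and 9.41 in treated and 9.50, 9.80 and 9.78 in untreated microsystem cells, and 9.40, 9.70 and 9.67 in treated and 9.58, 9.82 and 9.92 in untreated Petri cells. Only the microsystem groups are apart. It fell there by 0.41 ± 0.12 SE (adjusted p = 0.0492), a call lost without any 1 array except untreated microsystem array 1, treated Petri array 1 or untreated Petri array 1 (adjusted p up to 0.179). Between treated cells FBL differed by -0.30 ± 0.12 with the microsystem (adjusted p = 0.0594), and this passed without treated microsystem array 3, untreated microsystem array 1, treated Petri array 1 or untreated Petri array 1 (adjusted p as low as 0.00506 over all alternatives). NOP58, a scaffold of the same particles, differed by -0.16 in the microsystem and -0.21 in Petri dishes without a call.

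DKC1, the pseudouridine synthase of box H/ACA snoRNPs, was highest in untreated microsystem cells. It read 8.38, 8.40 and 8.54 in treated and 8.57, 8.80 and 8.81 in untreated microsystem cells, against 8.27, 8.28 and 8.30 in treated and 8.30, 8.38 and 8.34 in untreated Petri cells. Treatment lowered it by 0.29 ± 0.08 SE in the microsystem (adjusted p = 0.0433), a call lost without any 1 array other than treated microsystem array 3 or untreated microsystem array 1 (adjusted p up to 0.142). Between untreated cells the microsystem was higher by 0.39 ± 0.08 (adjusted p = 0.00175).

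NHP2, another core protein of these particles, had the same order. Its values were 7.99, 7.83 and 8.03 in treated and 8.06, 8.51 and 8.50 in untreated microsystem cells, and 7.81, 7.97 and 7.98 in treated and 7.80, 7.98 and 8.02 in untreated Petri cells. It fell with treatment in the microsystem by 0.41 ± 0.12 SE (adjusted p = 0.0462), with a call only when no array, untreated microsystem array 1 or untreated Petri array 1 was left out (adjusted p otherwise up to 0.167), and was higher in the untreated microsystem by 0.42 ± 0.12 (adjusted p = 0.0097). A second NHP2 probe set gave -0.31 (adjusted p = 0.205) and 0.18 (adjusted p = 0.333) for these comparisons over all probe sets. In that same limma fit the probe set used here had adjusted p = 0.0634 and 0.0136, so NHP2 is uncertain.

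GAR1 was the member of the H/ACA core that fell in Petri dishes. It read 7.01, 7.11 and 7.13 in treated and 7.25, 7.17 and 7.35 in untreated microsystem cells, and 6.96, 6.81 and 6.91 in treated and 7.20, 7.20 and 7.13 in untreated Petri cells. Treated arrays lie below untreated ones in both cultures. The fall in Petri dishes was 0.28 ± 0.08 SE (adjusted p = 0.034), lost without treated Petri array 2 or 3 or any 1 untreated Petri array (adjusted p up to 0.141), and the microsystem gave -0.17 ± 0.08 (adjusted p = 0.181). NOP10, the smallest protein of the core, had no call, and between untreated cells its difference of 0.26 (adjusted p = 0.0607) passed under 7 alternatives.

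Of the abundant nucleolar proteins, nucleolin (NCL) was higher in the microsystem. It read 10.82, 10.96 and 11.09 in treated and 11.02, 11.18 and 11.41 in untreated microsystem cells, against 10.75, 10.73 and 10.70 in treated and 10.91, 10.88 and 10.89 in untreated Petri cells. The rise between untreated cells was 0.31 ± 0.10 SE (adjusted p = 0.0204), and that between treated cells was 0.23 ± 0.10 without a call (adjusted p = 0.0744). The call between untreated cells was lost without untreated microsystem array 3 or untreated Petri array 2 or 3 (adjusted p up to 0.0899), and the difference between treated cells passed without treated microsystem array 1 or untreated microsystem array 1 or 3 (adjusted p as low as 0.037 over all alternatives).

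Nucleophosmin (NPM1), a histone and ribosomal protein chaperone, read 11.78, 11.75 and 12.03 in treated and 11.95, 12.17 and 12.31 in untreated microsystem cells, and 11.98, 12.04 and 12.04 in treated and 12.13, 12.22 and 12.26 in untreated Petri cells. It had no call in these 4 comparisons. Its treatment differences were -0.29 ± 0.10 SE in the microsystem (adjusted p = 0.0861) and -0.18 ± 0.10 in Petri dishes (adjusted p = 0.263). The first passed under 5 alternatives, among them leaving out treated microsystem array 3 or untreated microsystem array 1 (adjusted p as low as 0.0272). A second NPM1 probe set gave -0.43 and -0.28 for treatment, and between treated cells it was called lower in the microsystem, at -0.42 (adjusted p = 0.0296 over all probe sets), where the probe set used here gave -0.17 (adjusted p = 0.206). NPM1 has near-identical copies as well, so its signal is uncertain. The helicase DDX21 likewise had no call, with -0.22 in the microsystem and -0.09 in Petri dishes.

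**Figure D3:**
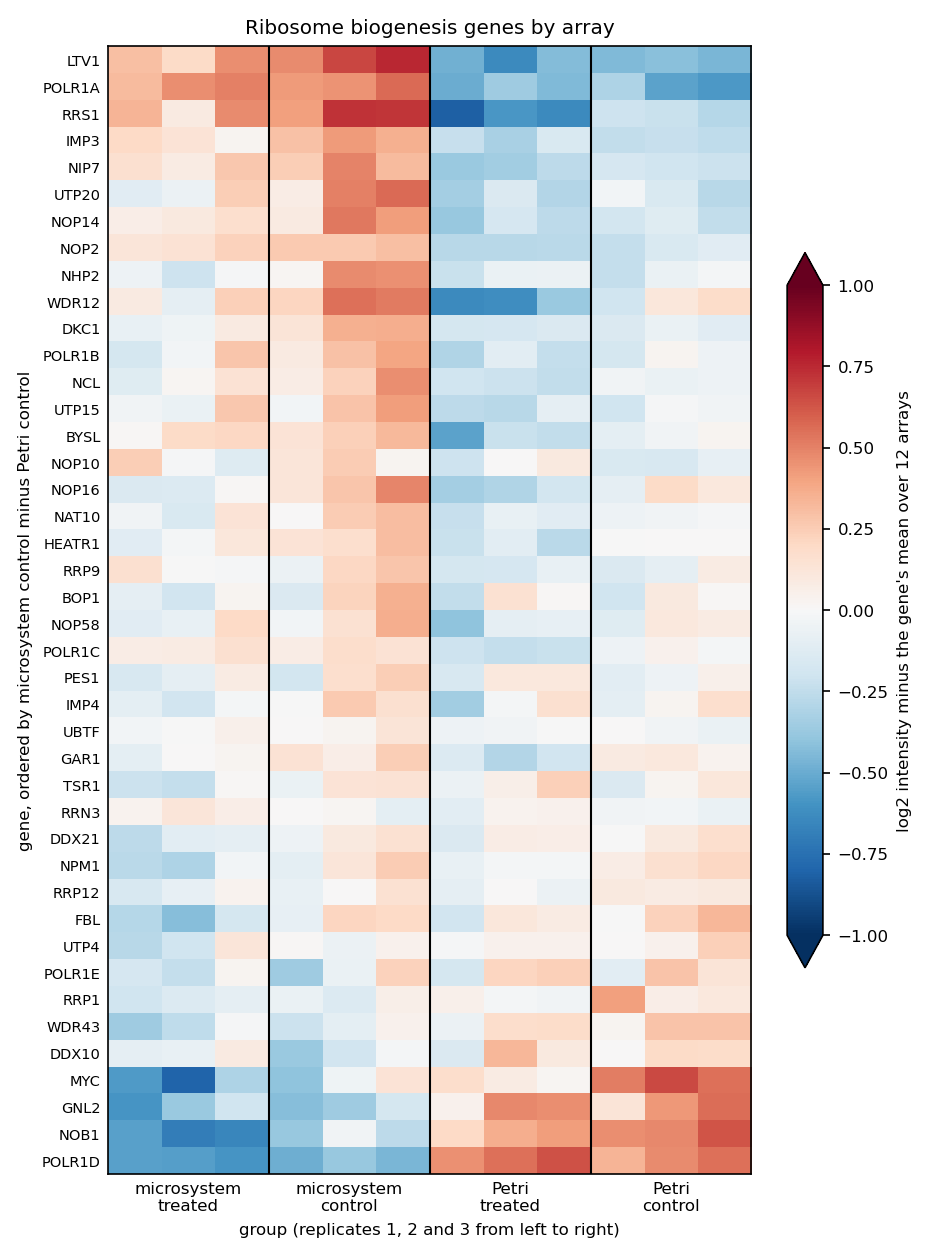
Values of the 42 genes on the 12 arrays, each gene as its log2 deviation from its own mean over the arrays. For most genes the highest array is untreated microsystem array 2 or 3, while POLR1D, NOB1, GNL2 and MYC are lower in the microsystem.

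Small subunit assembly held the largest rise and a large fall between cultures. LTV1, which helps precursors of the small subunit leave the nucleus, read 8.73, 8.62 and 8.90 in treated and 8.91, 9.10 and 9.19 in untreated microsystem cells, against 7.96, 7.80 and 8.0 in treated and 8.0, 8.02 and 7.98 in untreated Petri cells. No microsystem array reaches down to a Petri array. Between treated cells the rise was 0.83 ± 0.10 SE (adjusted p = 1.76e-05). Treatment in the microsystem gave -0.31 ± 0.10 (adjusted p = 0.0562). This passed under 6 alternatives, among them leaving out treated microsystem array 3 or untreated microsystem array 1 (adjusted p as low as 0.0256).

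NOB1 encodes the endonuclease that makes the last cut in the RNA of the small subunit, a late step on the same particles as LTV1. It read 8.71, 8.56 and 8.60 in treated and 8.87, 9.21 and 8.99 in untreated microsystem cells, against 9.45, 9.61 and 9.66 in treated and 9.72, 9.73 and 9.87 in untreated Petri cells. The 4 groups are in this order with no overlap between neighbours. The microsystem lowered it by 0.95 ± 0.10 SE between treated cells (adjusted p = 7.48e-06) and 0.75 ± 0.10 between untreated cells (adjusted p = 4.54e-05). Treatment lowered it by 0.40 ± 0.10 in the microsystem (adjusted p = 0.0234), a call lost without treated microsystem array 2 or 3 or untreated microsystem array 2 (adjusted p up to 0.0948), and gave -0.20 ± 0.10 in Petri dishes (adjusted p = 0.219).

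IMP3, a partner of the U3 snoRNA in early cleavage, read 7.54, 7.47 and 7.37 in treated and 7.63, 7.76 and 7.69 in untreated microsystem cells, against 7.11, 7.01 and 7.18 in treated and 7.09, 7.11 and 7.09 in untreated Petri cells. The cultures are apart, and so are treated and untreated cells of the microsystem. It rose by 0.36 ± 0.08 SE between treated (adjusted p = 0.00226) and 0.60 ± 0.08 between untreated cells (adjusted p = 4.18e-05). Its treatment difference in the microsystem was -0.23 ± 0.08 (adjusted p = 0.0745).

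Among the other small subunit genes, NOP14 of the early processome rose by 0.38 between treated and 0.53 between untreated cells (adjusted p = 0.00989 and 0.00114). BYSL, needed for maturation of the pre-small subunit, rose by 0.47 and 0.27 (adjusted p = 0.00159 and 0.0358). UTP20, a large scaffold protein, rose by 0.53 ± 0.13 between untreated cells (adjusted p = 0.00506). The helicase DDX10 fell by 0.32 between untreated cells (adjusted p = 0.0482), and WDR43, a nucleolar scaffold of early transcripts, fell by 0.31 between treated cells, with groups that overlap (adjusted p = 0.0431).

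Several of these calls hung on single arrays. BYSL between untreated cells lost its call without untreated microsystem array 2 or 3 or any 1 untreated Petri array (adjusted p up to 0.111). DDX10 lost it without treated microsystem array 1 or 2, untreated microsystem array 1 or 2, treated Petri array 3, or untreated Petri array 2 or 3 (adjusted p up to 0.174). WDR43 lost it without treated microsystem array 1 or 2, untreated microsystem array 2, treated Petri array 2 or 3, or untreated Petri array 2 (adjusted p up to 0.159). Between untreated cells WDR43 differed by -0.29 without a call (adjusted p = 0.0506), and this passed under 10 alternatives (adjusted p as low as 0.0071).

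In the 4 comparisons of groups, no call was made for HEATR1, UTP4 and UTP15, which link transcription to processing, the U3 protein RRP9, the U3 partner IMP4, the acetyltransferase NAT10, the export factor RRP12 or the late factor TSR1. HEATR1 fell only on the treatment average over both cultures, and 6 of these 8 genes passed in at least 1 comparison under some alternative. Over all 16 small subunit genes, treatment gave medians of -0.21 in the microsystem, with 1 fall, and -0.10 in Petri dishes, with 0 falls and 0 rises in limma. The culture medians were 0.16 between treated and 0.20 between untreated cells.

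Large subunit assembly was represented by 9 measured genes. RRS1, which helps a ribonucleoprotein of the small 5S rRNA join the precursor, read 7.33, 7.08 and 7.46 in treated and 7.40, 7.71 and 7.71 in untreated microsystem cells, against 6.17, 6.40 and 6.36 in treated and 6.78, 6.76 and 6.70 in untreated Petri cells. The cultures are apart, and treated and untreated Petri arrays are too. It rose with the microsystem by 0.98 ± 0.11 SE between treated (adjusted p = 1.73e-05) and 0.86 ± 0.11 between untreated cells (adjusted p = 4.46e-05). Treatment in Petri dishes lowered it by 0.44 ± 0.11 (adjusted p = 0.0241), a call lost without treated Petri array 1 or 3 or any 1 untreated Petri array (adjusted p up to 0.0813).

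WDR12 forms a complex with PES1 and BOP1 that is needed for processing of the large subunit RNA. It read 9.07, 8.88 and 9.21 in treated and 9.19, 9.53 and 9.49 in untreated microsystem cells, against 8.34, 8.36 and 8.60 in treated and 8.77, 9.08 and 9.16 in untreated Petri cells. Treated Petri arrays are the lowest 3 of the 12. Its fall with treatment in Petri dishes was 0.57 ± 0.13 SE (adjusted p = 0.0126, up to 0.0593 without treated Petri array 2 or untreated Petri array 2 or 3, where the call was lost). In the microsystem treatment gave -0.35 ± 0.13 (adjusted p = 0.108), which passed under 4 alternatives, among them leaving out untreated microsystem array 1.

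Between cultures WDR12 rose by 0.62 ± 0.13 between treated (adjusted p = 0.00169) and 0.40 ± 0.13 between untreated cells (adjusted p = 0.0223). The second of these calls was lost without untreated microsystem array 2 or 3 or untreated Petri array 1 (adjusted p up to 0.0995). Its partners PES1 and BOP1 had no call, with culture differences between -0.07 and 0.17.

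GNL2, a nucleolar GTPase of large subunit export, was lower in the microsystem. It read 8.14, 8.37 and 8.54 in treated and 8.31, 8.38 and 8.56 in untreated microsystem cells, against 8.78, 9.22 and 9.20 in treated and 8.86, 9.17 and 9.29 in untreated Petri cells. Cultures do not overlap and treatments do. The fall was 0.72 ± 0.14 SE between treated (adjusted p = 0.00139) and 0.69 ± 0.14 between untreated cells (adjusted p = 0.00157).

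NOP16, a nucleolar protein of early large subunit particles, read 7.31, 7.32 and 7.47 in treated and 7.58, 7.74 and 7.95 in untreated microsystem cells, and 7.12, 7.16 and 7.28 in treated and 7.37, 7.65 and 7.57 in untreated Petri cells. Treated and untreated arrays are apart in both cultures. It fell by 0.38 ± 0.11 SE in the microsystem (adjusted p = 0.0377), lost without treated microsystem array 1 or 2, untreated microsystem array 2 or 3 or treated Petri array 2 (adjusted p up to 0.127), and gave -0.34 ± 0.11 in Petri dishes (adjusted p = 0.0542). That Petri difference passed under 10 alternatives, among them leaving out untreated microsystem array 1 or 3 or untreated Petri array 1 (adjusted p as low as 0.0027).

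The methyltransferase NOP2 rose with the microsystem by 0.44 between treated and 0.44 between untreated cells (adjusted p = 0.000236 and 0.000192). NIP7, which acts in late pre-rRNA maturation, rose by 0.49 and 0.55 (adjusted p = 0.000374 and 0.000147). RRP1 had no call, at -0.14 between treated and -0.24 between untreated cells. The difference between untreated cells (adjusted p = 0.0521) passed under 6 alternatives (adjusted p as low as 0.0348).

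**Figure D4:**
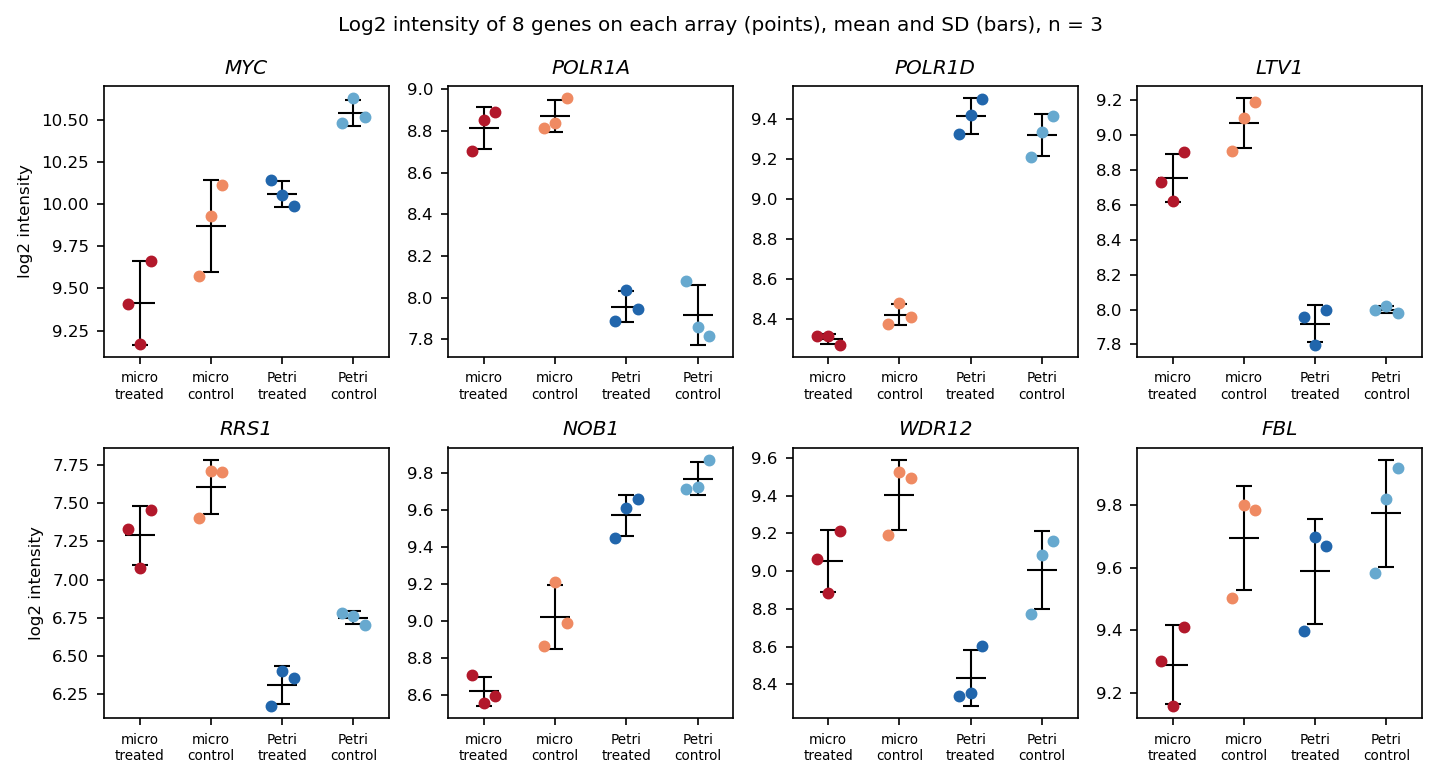
Log2 values of 8 genes on every array, grouped by culture and treatment, with the mean and SD of each group as bars (n = 3). POLR1D and NOB1 are lower in the microsystem, LTV1, POLR1A and RRS1 are higher there, and MYC is lowest in treated microsystem cells.

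Over the 42 genes, the untreated microsystem had the highest mean for 27, untreated Petri dishes for 12, treated Petri dishes for 2 and the treated microsystem for 1. The median SD of these genes within a group was 0.11 in the treated and 0.14 in the untreated microsystem, and 0.10 in treated and 0.09 in untreated Petri dishes.

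Other genes of the same pathway were taken from lists that share no gene with the 42. Of 113 further ribosome biogenesis genes tested (117 listed), 0 rose and 2 fell with treatment in the microsystem, LYAR (-0.52 ± 0.09 SE, adjusted p = 0.00315) and TAF1D of the RNA polymerase I initiation factor SL1 (-0.38 ± 0.11, adjusted p = 0.0393). In Petri dishes 2 rose, EFL1, which helps release an anti-association factor from the large subunit (0.69 ± 0.10, adjusted p = 0.00126), and RRP36, and 3 fell, TAF1D, RSL24D1 and ZNHIT6. EFL1 had low values, with Petri means of 5.09 in untreated and 5.78 in treated cells. The 40th percentiles of the arrays lay between 4.805 and 4.898. With treatment in the microsystem 0% of the 113 rose, against 6.39% of all genes, and 1.77% fell, against 2.67%. In Petri dishes 1.77% rose, against 8.38% of all genes, and 2.65% fell, against 1.98%. Treatment medians over the 113 were -0.11 in the microsystem, against -0.01 over all genes, and -0.03 in Petri dishes, against 0.01. In the microsystem 82 of 113 (72.6%) were below 0, against 51.4% of all genes, and in Petri dishes 65 (57.5%), against 47.3%. At an unadjusted limma p under 0.05, 28 of 113 were lower in the microsystem, against 11.3% of all genes, and 3 higher, against 14.5%. In Petri dishes 10 were lower, against 9.08%, and 6 higher, against 17.2%. Between treated cells 32 rose (28.3%, against 22.6% of all genes) and 19 fell (16.8%, against 18.9%) with the microsystem. Between untreated cells 44 rose (38.9%, against 26.5%) and 12 fell (10.6%, against 18.3%). The kinase gene RIOK3 fell by 1.26 and 1.44 in these comparisons, while RRP36 rose by 0.78 and 1.02, and LYAR rose by 1.02 between untreated cells.

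RNA polymerase III genes gave 1 rise and 1 fall among 19 with treatment in the microsystem (GTF3C5 at 0.33 and GTF3A at -0.36), and 2 rises in Petri dishes, GTF3C5 and POLR3K. In the microsystem these are 5.26% rising and 5.26% falling, against 6.39% and 2.67% of all genes. The Petri rises are 10.5%, against 8.38% of all genes, and 0 fell, against 1.98%. Culture raised 7 of the 19 (36.8%, against 22.6% of all genes) and lowered 1 (5.26%, against 18.9%) between treated cells. Between untreated cells it lowered 4 (21.1%, against 18.3%) and raised 8 (42.1%, against 26.5%), POLR3K by 0.92 ± 0.10 SE (adjusted p = 1.08e-05). Of 13 RNA exosome genes, which trim rRNA precursors, EXOSC5 alone fell with treatment in the microsystem (-0.44 ± 0.11, adjusted p = 0.0267). That is 7.69%, against 2.67% of all genes, and 0 rose, against 6.39%. In Petri dishes none of the 13 rose or fell by limma's call, against 8.38% and 1.98% of all genes.

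Genes tied to MYC were mixed. Among 10 MYC partners tested, MXI1, whose product opposes MYC for MAX, fell with the microsystem by 1.22 ± 0.12 SE between treated and 1.23 ± 0.12 between untreated cells (adjusted p = 5.44e-06 and 4.61e-06), and MXD4 rose by 0.62 and 0.73. Of the 10 partners, 3 rose (30%, against 22.6% of all genes) and 4 fell (40%, against 18.9%) with the microsystem between treated cells. Between untreated cells 2 rose (20%, against 26.5%) and 2 fell (20%, against 18.3%). Among 23 MYC targets outside the nucleolus, 3 fell with treatment in the microsystem, SHMT2 (-0.49), CCND2 (-0.46) and C1QBP (-0.41). They are 13% of the 23, against 2.67% of all genes. CCND2 alone fell in Petri dishes (-0.36, adjusted p = 0.0314), which is 4.35%, against 1.98% of all genes. Between treated cells 10 of the 23 targets rose with the microsystem (43.5%, against 22.6% of all genes) and 5 fell (21.7%, against 18.9%). Between untreated cells 9 rose (39.1%, against 26.5%) and 4 fell (17.4%, against 18.3%). Among these rises were the polyamine synthesis genes ODC1 and SRM, by 0.74 and 0.78 between untreated cells.

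Of 14 proliferation genes, 5 (35.7%) rose and 0 fell in each culture, against 6.39% of all genes that rose in the microsystem and 8.38% in Petri dishes. In both cultures 9 of 14 did not pass, and 0 of 14 were below 0, with medians of 0.34 in the microsystem and 0.47 in Petri dishes. CDK1 rose by 0.81 ± 0.16 SE in the microsystem (adjusted p = 0.00771) and PCNA by 0.88 ± 0.11 in Petri dishes (adjusted p = 0.000358). Whether these rises have a part in the falls among the 42 genes was not tested.

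**Figure D5:**
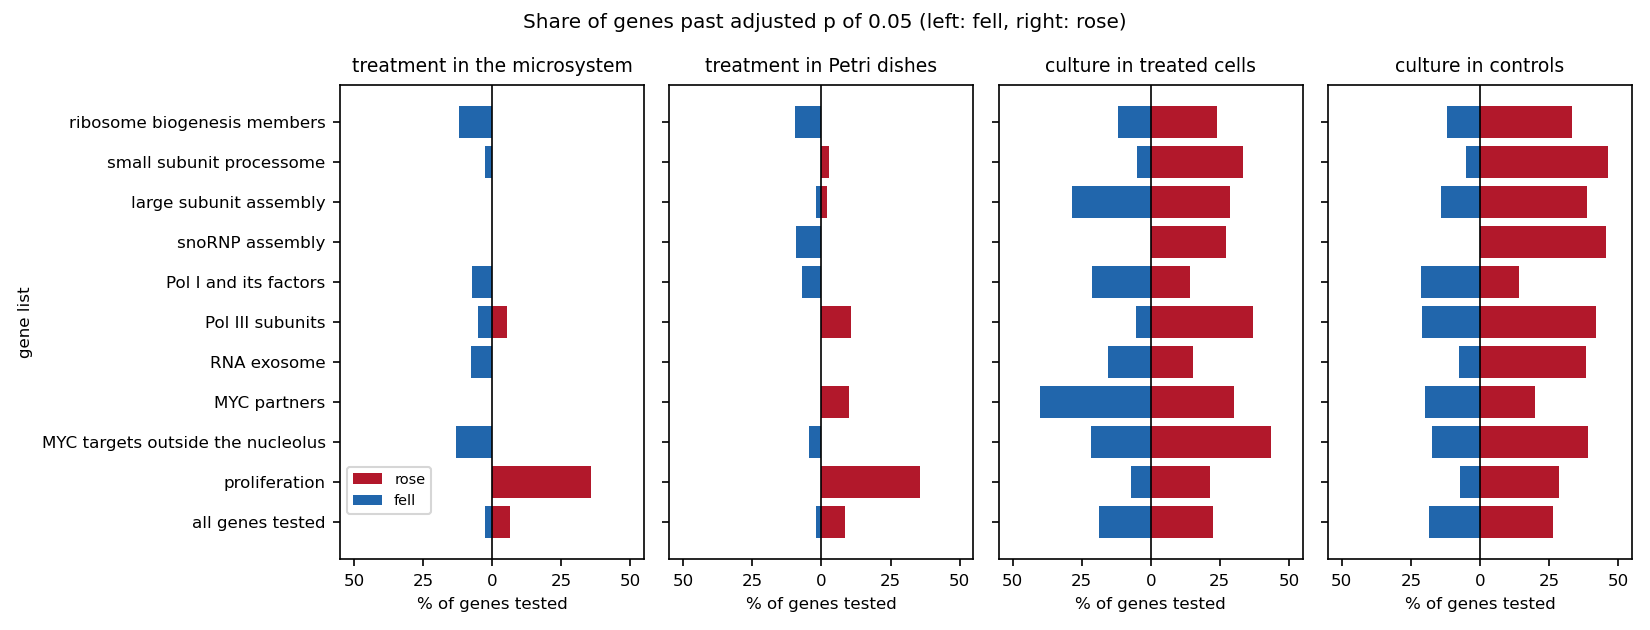
Share of genes that rose and fell in each comparison, for the 42 genes, the other lists and all genes tested. With treatment no rise is seen among the 42 genes, while 5 of 14 proliferation genes rose in each culture.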

How the data were processed

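Total RNA of 12 samples was measured on 1-colour Affymetrix Human Gene 1.0 ST arrays. Per the submitters' processing notes, the authors made the deposited log2 values per probe set by RMA in Affymetrix Expression Console, and these were used without new normalization. Program versions and the arrays' genome build: not given in the sources used here. Number of arrays, not depth, limits the precision.

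Of 32321 probe sets, 19158 had 1 symbol, 1388 several and 11775 none in the platform annotation. The probe set with the highest mean stood for a gene (18404 genes). Genes with at least 3 arrays above their 40th percentile were kept (13199 kept, 5205 removed).

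All 12 arrays entered 1 linear model of group means (limma 3.58.1, R 4.3.3; 8 residual and 5.35 prior degrees of freedom), with two-sided tests and Benjamini-Hochberg adjustment over 13199 genes at a threshold of 0.05. The procedure was run on simulated data with independent noise on each array, so that run does not cover arrays that deviate together. Its recovery of changes as small as the treatment calls is not given here. Figures used Python 3.11.15 and matplotlib 3.10.9.

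Members and lists came from general knowledge and were chosen with earlier results of these data known. Per-array values were to be given for members past the threshold, up to 8 per comparison by size, and for MYC, NPM1, NCL, FBL and NOP56, and for other lists up to 3 genes per comparison. Pairing by replicate number was checked through correlations of deviations from group means. For treatment these were 0.107, 0.071 and 0.604 in the microsystem and 0.477, 0.189 and 0.307 in Petri dishes. For culture they were 0.141, -0.138 and 0.13 in treated and 0.184, -0.034 and 0.13 in untreated cells. Only the Petri dishes passed 0.1 in all pairs. Alternatives are given in the closing section. Promoter windows are RefSeq's, on GRCh38.p14.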

Additional observations from a re-analysis of the deposited data

How the results depend on the processing

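The number of arrays limits these results. The direction of every called gene held under all alternatives run. Among 4494 gene values compared, 123 changed sign, all of them past no threshold.

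Treatment in the microsystem, with 5 falls, gave 9 with the replicate block, 11 with the block within each culture, 0 with only the arrays compared, 1 with array medians set equal, 2 with no filter, 11 with array weights and 0 without both microsystem arrays numbered 3. Leaving out 1 array gave 0 to 13. Treatment in Petri dishes, with 4 falls, gave 8 with array weights, 2 with array medians set equal and 7 with quantile normalization, and 0 to 5 with 1 array left out. The other alternatives stayed within 1.5 times. None of the 5 and none of the 4 passed under every alternative (0 and 0), and 0 genes rose under any of them. The cause was not tested.

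Between treated cells the 15 calls became 14 to 22 (14 to 18 with 1 array left out), and 14 of the 15 held throughout, all but WDR43. Between untreated cells the 19 calls became 18 to 24 (15 to 23 with 1 array left out), and 14 held throughout, all but NCL, POLR1B, WDR12, BYSL and DDX10. The replicate block gave 19 and 23, with numbers that do not pair the cultures. The difference of treatment effects had 0 calls under every alternative.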

Other observations

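Counting only probe sets with a single symbol, BOP1 was the remaining gene with more than 1 beside NHP2 and NPM1. Its second probe set differed by -0.08 with treatment in the microsystem, where the one used gave -0.23, and neither passed over all probe sets. DKC1 and RRN3 each have 2 further probe sets that also name other genes, which were not used.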
